A study of Homo sapiens with 8 samples.

Results

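The genes described here encode 10 proteins of the tight and adherens junctions, the contacts that hold neighbouring epithelial cells together. They were listed by symbol, with earlier results of these data known: the claudins CLDN1, CLDN3, CLDN4, CLDN7 and CLDN12, occludin (OCLN), the scaffold ZO-1 (TJP1), the adhesion molecule JAM-A (F11R), E-cadherin (CDH1) and β-catenin (CTNNB1). Each symbol matched 1 of the 58302 gene identifiers in the count table, and all 10 were among the 14133 genes that passed the filter on low counts. RNA was sequenced from DLD1 cells, an established human colorectal adenocarcinoma line. The OE-WT cells had been infected with a lentiviral pCDH vector for stable overexpression of wild type TRMT6/61A, the tRNA methyltransferase that places N1-methyladenosine on tRNA, and the CTRL cells carried the vector. There were 2 libraries per group, cultured in duplicate by the design text, and whether either line came from a single clone is not given in the sources used here. Cells had been washed with cycloheximide, a translation inhibitor, and the RNA came from the lysate cleared by centrifugation, in both groups.

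Tight junctions seal the space between epithelial cells. Claudins form the paired strands that set which ions pass, occludin and JAM-A sit beside them in the membrane, and ZO-1 tethers all of them to the actin cytoskeleton. Adherens junctions lie just below, where E-cadherin of 1 cell binds E-cadherin of the next and is linked to actin through β-catenin and α-catenin. β-catenin is also the transcriptional effector of the Wnt pathway, which is commonly active in colorectal cancer.

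The libraries held between 10327498 and 12379671 counts, and a gene's level is given as CPM, its counts divided by the library's total in megareads after scaling by the trimmed mean of M values (TMM). Divided by the library total alone, without TMM scaling, 3 counts corresponded to 0.242 to 0.290 CPM. Both overexpressed transcripts were higher in the OE-WT libraries: TRMT6 by 1.86 (SE 0.08) and TRMT61A by 1.21 (SE 0.07) on the log2 scale, with reads from the vector and from the cells' own genes counted together. Across all tested genes, log2 CPM of the libraries of a group correlated at 0.990 (OE-WT) and 0.992 (CTRL), and libraries of different groups at 0.977 to 0.983. The cells carried epithelial markers in every library, with a summed level of 11055 and 11414 CPM in OE-WT and 9821 and 9607 CPM in CTRL. Of 9 colon epithelium markers 8 were tested, and 2 were called higher and 3 lower in OE-WT. The shares over all genes tested were 9.44% higher and 11.6% lower. CDX1 had at most 1 count in any library, and VIL1 held 36 to 45 counts. Among the defining markers of other cell types, 3 of 6 fibroblast and 2 of 4 leukocyte genes were at 0 in all libraries. The summed level of the fibroblast list was 2.46 to 3.22 CPM in OE-WT and 2.27 to 2.41 CPM in CTRL. That of the leukocyte list was 1.47 to 1.61 CPM in OE-WT and 1.46 to 2.41 CPM in CTRL. COL1A1 (18 to 22 counts) and CD14 (14 to 31 counts) passed the filter, and neither was called. Of 3 endothelial markers, 1 was at 0 in all libraries, and VWF, at 5 and 6 counts in OE-WT and 30 and 14 counts in CTRL, was called lower (log2 fold change -1.65, edgeR quasi-likelihood adjusted p = 0.018). The summed level of the endothelial list was 0.590 to 0.806 CPM in OE-WT and 1.14 to 2.33 CPM in CTRL, and its part in the levels of the junction genes was not tested.

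The comparison of OE-WT with CTRL asks how junction transcripts differed when the methyltransferase was overexpressed. Of the 10 members, 7 were called lower in OE-WT at an adjusted p under 0.05 (edgeR quasi-likelihood test, Benjamini-Hochberg over all tested genes), and 0 were called higher. Over all 14133 genes, 21.1% were called, 11.6% lower and 9.44% higher. The 7 genes were CLDN3, CLDN4, CLDN7, CLDN12, OCLN, F11R and CDH1, and CLDN1, TJP1 and CTNNB1 were not called. In each of the 7, both OE-WT libraries lay below both CTRL libraries, as they did for 30.2% of all genes tested. The median log2 fold change of the members was -0.30, against 0.01 over all genes tested. No member met the rule used in the study's methods, an unadjusted p under 0.05 with an absolute log2 fold change above 1, which 2.25% of all genes met as lower and 0.899% as higher. Without OE-WT replicate 2, CLDN3 met it, at a log2 fold change of -1.14. In these bulk libraries, fewer cells carrying a transcript and less of it per cell cannot be told apart.

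**Figure D1:**
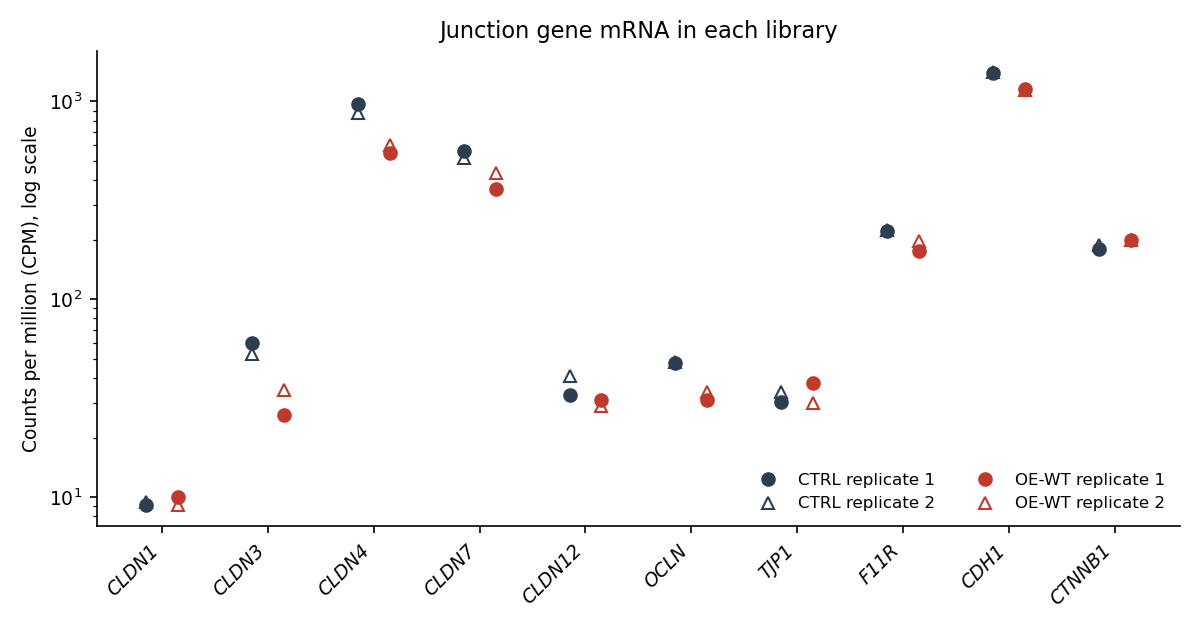
TMM-scaled CPM (log axis) of the 10 junction genes in each of the 2 OE-WT and 2 CTRL libraries, 1 point per library. Both OE-WT points lie below both CTRL points for CLDN3, CLDN4, CLDN7, CLDN12, OCLN, F11R and CDH1, the points of CLDN1 and TJP1 overlap, and both OE-WT points of CTNNB1 lie above.

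The DNA just upstream of a transcription start is shown for 3 members whose window held no annotated exon: CLDN3, which had the largest fall, CLDN7, an abundant claudin that also fell, and TJP1, which was not called. The windows are from RefSeq (GRCh38.p14), minus strand, at chr7:73770271-73770520 (CLDN3), chr17:7263214-7263463 (CLDN7, an internal start) and chr15:29969050-29969299 (TJP1). Capitals mark the E-box letters bound by SNAI and ZEB repressors of E-cadherin (CAGGTG or CACCTG) and GC boxes (GGGCGG or CCGCCC), searched on both strands, and these motifs share no bases here.
CLDN3: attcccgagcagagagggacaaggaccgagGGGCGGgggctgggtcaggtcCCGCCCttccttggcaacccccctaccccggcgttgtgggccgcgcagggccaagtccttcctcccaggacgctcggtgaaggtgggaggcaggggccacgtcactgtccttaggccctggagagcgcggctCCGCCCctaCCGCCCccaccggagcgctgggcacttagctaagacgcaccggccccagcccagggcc
CLDN7: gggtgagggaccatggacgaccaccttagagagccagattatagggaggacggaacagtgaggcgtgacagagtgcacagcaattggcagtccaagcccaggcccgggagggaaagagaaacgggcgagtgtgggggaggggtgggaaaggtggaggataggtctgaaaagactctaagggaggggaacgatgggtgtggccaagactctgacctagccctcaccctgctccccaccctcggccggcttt
TJP1: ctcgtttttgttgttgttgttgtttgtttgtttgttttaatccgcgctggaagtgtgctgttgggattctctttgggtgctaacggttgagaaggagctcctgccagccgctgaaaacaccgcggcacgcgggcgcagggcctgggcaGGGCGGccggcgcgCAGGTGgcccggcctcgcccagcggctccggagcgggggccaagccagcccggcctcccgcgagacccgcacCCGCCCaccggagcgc

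The CLDN3 window held 4 GC boxes and no E-box, and its G and C share was 71.6%. The CLDN7 window had neither motif, and the TJP1 window had 1 E-box and 2 GC boxes. These windows do not stand for all starts of their genes. The other CLDN7 start (chr17:7262479-7262728), whose window lay wholly in annotated exons, had 4 E-boxes and 1 GC box. Another TJP1 window without annotated exon (chr15:29820675-29820924) had neither motif. The promoter table matched 8 of the 10 members with 13 start sites, some of which belong to the same gene. CDH1 and F11R had no entry. An E-box was present at 4 of the 13 starts and a GC box at 9, against 17.5% and 42.6% of all 35116 promoters of the same length. The E-box letters were found at starts of CLDN7, OCLN and TJP1, that is, in members that were called lower and in 1 that was not called. A match is a run of letters only.

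Claudins. CLDN4 and CLDN3 were the first claudins identified as receptors of the Clostridium perfringens enterotoxin, and both restrict paracellular ion flow. CLDN3 (ENSG00000165215, chr7:73768997-73770270, minus strand) was measured at 26.0 and 34.9 CPM in the OE-WT libraries and at 60.5 and 53.0 CPM in the CTRL libraries. Its groups were well separated, with means of 30.4 ± 6.29 and 56.7 ± 5.28 CPM (SD, n = 2 each). The fall of 46.3% was the largest among the members, a log2 fold change of -0.90 (SE 0.11, 95% confidence interval -1.12 to -0.67) with an adjusted p of 3.96e-06 in the edgeR quasi-likelihood test. CLDN3 exons are 69.2% G and C, and with the trend of fold change on GC content removed its log2 fold change was -0.66, still past the threshold.

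CLDN4 (ENSG00000189143, chr7:73799542-73832690, plus strand) lies next to CLDN3 on chromosome 7 and was far more abundant. It was measured at 549.8 and 605 CPM in OE-WT and at 975 and 871 CPM in CTRL. Every CTRL library exceeded every OE-WT library, and the group means were 577 ± 38.8 and 923 ± 73.5 CPM (SD, n = 2 each). CLDN4 fell by 37.5%, a log2 fold change of -0.68 (SE 0.07, 95% confidence interval -0.83 to -0.53, edgeR quasi-likelihood adjusted p = 8.73e-07). Over the alternatives its log2 fold change ranged from -0.77 with library size scaling to -0.58 with GC content removed.

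CLDN7 (ENSG00000181885, chr17:7259903-7263983, minus strand) is the claudin that binds EPCAM along the lateral membrane of intestinal cells. Its level was 363 and 433 CPM in OE-WT and 562 and 518 CPM in CTRL, again without overlap. The means were 398 ± 49.9 and 540.3 ± 31.1 CPM, and the log2 fold change was -0.44 (SE 0.08, 95% confidence interval -0.60 to -0.28, edgeR quasi-likelihood adjusted p = 0.000275). The size of the fall varied, with -0.32 with GC content removed, -0.31 without OE-WT replicate 1 and -0.58 without OE-WT replicate 2. On the same strand, 10.8% of its exon bases are shared with an unnamed gene that had 0 counts in every library.

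CLDN12 (ENSG00000157224, chr7:90383721-90513402, plus strand), a claudin associated with calcium permeability of the gut, was less abundant. It was measured at 30.9 and 28.9 CPM in OE-WT and at 33.0 and 40.9 CPM in CTRL. The groups did not overlap, but the lower CTRL library lay close to the OE-WT libraries. The log2 fold change of -0.30 (SE 0.10, 95% confidence interval -0.52 to -0.08) gave an adjusted p of 0.044 in the edgeR quasi-likelihood test. The call was lost without CTRL replicate 2 (-0.14, adjusted p = 0.472, same edgeR test) and without OE-WT replicate 2 (-0.26, adjusted p = 0.112). With all 4 libraries kept, it was also lost by DESeq2 (-0.30, adjusted p = 0.232) and without the filter on low counts (-0.32, adjusted p = 0.0899, edgeR), and over 11 alternatives the adjusted p ranged from 0.00196 to 0.472. Parts of its exons also overlap CDK14, GTPBP10 and PTTG1IP2 on the same strand.

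CLDN1 (ENSG00000163347, chr3:190305707-190322446, minus strand), the claudin essential for the skin barrier, was among the least abundant members per length. It was measured at 10.1 and 9.14 CPM in OE-WT and at 9.17 and 9.42 CPM in CTRL, so the groups overlapped. The log2 fold change was 0.05 (SE 0.16, 95% confidence interval -0.28 to 0.38, edgeR quasi-likelihood adjusted p = 0.867), and its sign turned with library size scaling, with GC content removed and without OE-WT replicate 1. At 93 to 118 counts per library, the interval did not exclude a fall of the size seen for F11R.

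**Figure D2:**
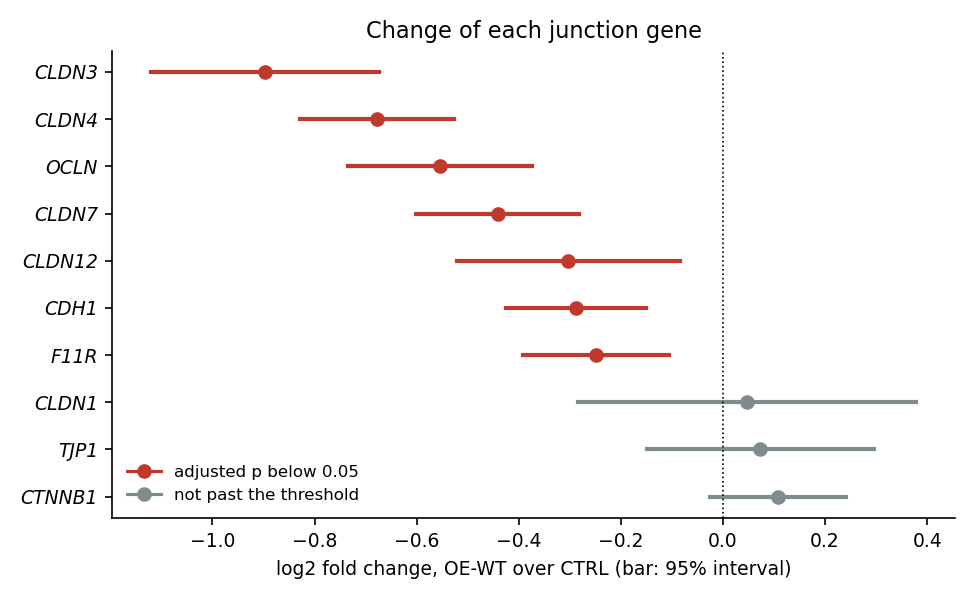
Log2 fold change of OE-WT over CTRL for each of the 10 junction genes, with the 95% confidence interval of the edgeR fit as bars (2 libraries per group) and a vertical line at 0. The intervals of CLDN3, CLDN4, CLDN7, CLDN12, OCLN, F11R and CDH1 lie below 0, from -0.90 for CLDN3 to -0.25 for F11R, and those of CLDN1, TJP1 and CTNNB1 include 0.

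The summed CPM of the 5 claudins were 979 and 1111 in OE-WT and 1640.3 and 1493 in CTRL. The mean sum was 1045 ± 92.9 in OE-WT and 1567 ± 104 in CTRL (SD, n = 2 each), a ratio of 0.667. The groups did not overlap, but with 2 libraries per group the exact permutation test (two-sided) cannot go below its p of 0.333.

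The claudins of the whole family differed in direction, so their mix differed too. CLDN2, which is no member of the set and forms a cation-selective pore in leaky epithelia, was measured at 93.7 and 110.2 CPM in OE-WT and at 50.7 and 48.1 CPM in CTRL. It rose by 1.05 on the log2 scale (SE 0.08, edgeR quasi-likelihood adjusted p = 1.8e-08). Counted per kilobase of exon over 20 claudins, CLDN4 made up 35.9% and 34.0% of the claudin signal in OE-WT and 40.4% and 39.6% in CTRL. CLDN3 made up 6.26% and 7.24% in OE-WT and 9.24% and 8.88% in CTRL. The share of CLDN2 was 8.42% and 8.54% in OE-WT and 2.89% and 3.005% in CTRL, while that of CLDN7 was 44.6% and 46.0% in OE-WT and 43.9% and 44.4% in CTRL. Per kilobase, CLDN7 thus had the largest share in all 4 libraries. Not divided by length, the CPM of CLDN4 exceeded those of CLDN7 in each library. They were 549.8 and 605 against 363 and 433 in OE-WT, and 975 and 871 against 562 and 518 in CTRL. The order of the 2 genes and the shares depend on the exons assumed to be in use. The ratio of CLDN4 counts to CLDN2 counts was 5.87 and 5.49 in OE-WT and 19.2 and 18.1 in CTRL. Since shares sum to a whole, a rise in one lowers the others.

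**Figure D3:**
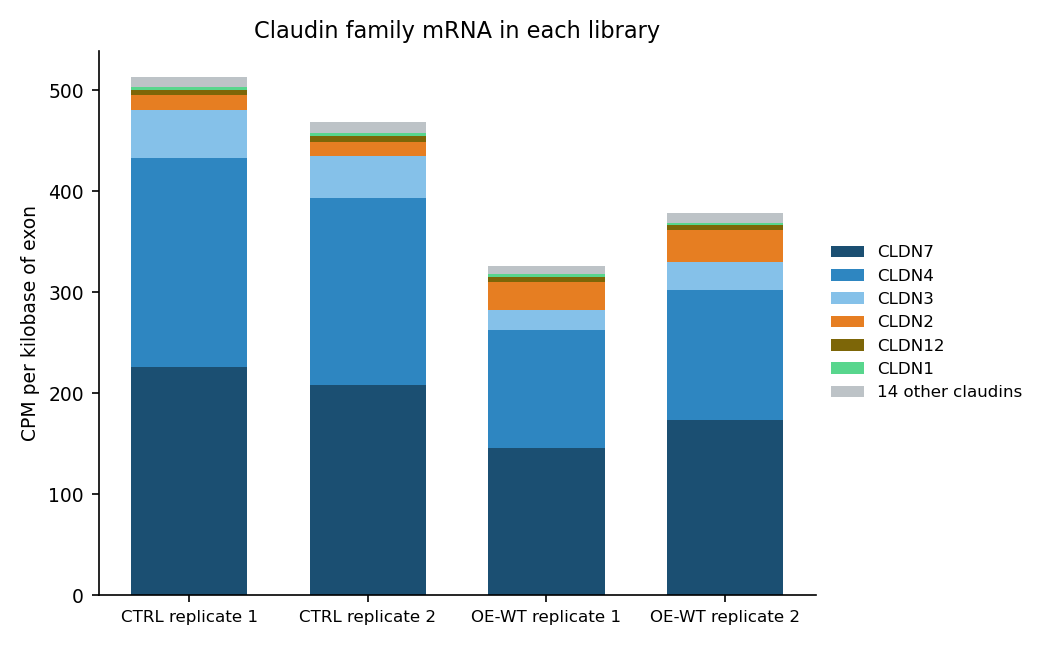
CPM per kilobase of exon of the claudins, stacked by gene, in each of the 2 OE-WT and 2 CTRL libraries. The stacks reach 326 and 378 in OE-WT and 514 and 469 in CTRL. The CLDN7, CLDN4 and CLDN3 layers are thinner in OE-WT, and the CLDN2 layer is thicker.

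Other membrane proteins of the tight junction. OCLN (ENSG00000197822, chr5:69492292-69558104, plus strand) encodes occludin, a 4-pass membrane protein that helps to organise claudin strands. It was measured at 31.1 and 33.9 CPM in OE-WT and at 47.6 and 48.0 CPM in CTRL. The libraries of each group lay close together and far from the other group, with means of 32.5 ± 1.96 and 47.8 ± 0.284 CPM (SD, n = 2 each). OCLN fell by 31.9%, a log2 fold change of -0.55 (SE 0.09, 95% confidence interval -0.73 to -0.37, edgeR quasi-likelihood adjusted p = 9.17e-05). A pseudogene, OCLNP1, is 99.7% identical to it over 679 bases and held 1 to 7 counts per library.

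F11R (ENSG00000158769, chr1:160995211-161021343, minus strand) encodes JAM-A, an immunoglobulin-type adhesion molecule that recruits polarity proteins. Its level was 176 and 198 CPM in OE-WT and 221 and 223 CPM in CTRL. The OE-WT libraries differed from each other about as much as the nearer one differed from CTRL. The log2 fold change was -0.25 (SE 0.07, 95% confidence interval -0.39 to -0.11, edgeR quasi-likelihood adjusted p = 0.0123), the smallest of the called members. Without OE-WT replicate 1 it was -0.16 and no longer past the threshold (adjusted p = 0.217, same edgeR test). A readthrough gene shares 36.6% of its exon bases on the same strand and had 3 counts in 1 library and 0 in the others.

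Scaffold. TJP1 (ENSG00000104067, chr15:29699367-29968915, minus strand) encodes ZO-1. It was measured at 37.6 and 29.9 CPM in OE-WT and at 30.2 and 33.8 CPM in CTRL, and the 2 OE-WT libraries were the highest and the lowest of the 4. The log2 fold change was 0.07 (SE 0.11, 95% confidence interval -0.15 to 0.30, edgeR quasi-likelihood adjusted p = 0.675), and its sign turned under 4 of 11 alternatives, including library size scaling and the removal of GC content.

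Adherens junction. CDH1 (ENSG00000039068, chr16:68737292-68835537, plus strand), which encodes E-cadherin, was the most abundant member. It was measured at 1152 and 1138 CPM in OE-WT and at 1393 and 1403 CPM in CTRL. The libraries of a group were nearly equal, with means of 1145 ± 9.50 and 1398 ± 6.94 CPM (SD, n = 2 each). CDH1 fell by 18.1%, a log2 fold change of -0.29 (SE 0.07, 95% confidence interval -0.42 to -0.15, edgeR quasi-likelihood adjusted p = 0.0032).

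CTNNB1 (ENSG00000168036, chr3:41194741-41260096, plus strand), the E-cadherin partner and Wnt effector, was measured at 198 and 199 CPM in OE-WT and at 179.9 and 188 CPM in CTRL. Both OE-WT libraries lay above both CTRL libraries, as they did for 29.9% of all genes tested. The difference did not pass the test, with a log2 fold change of 0.11 (SE 0.06, 95% confidence interval -0.03 to 0.24, edgeR quasi-likelihood adjusted p = 0.248), and it stayed above the threshold under all 11 alternatives.

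Ordered by level per length (CPM per kilobase of exon) in CTRL, CDH1 led at 230.1 ± 1.14, followed by CLDN7 at 217 ± 12.5 and CLDN4 at 196 ± 15.7 (SD, n = 2). These gaps were narrow in CTRL. The lower CDH1 library was at 229.2 and the higher CLDN7 library at 225.6. The lower CLDN7 library was at 208.0 and the higher CLDN4 library at 207.6. CLDN3 at 44.5 ± 4.15 and F11R at 43.9 ± 0.212 overlapped and could not be ranked. CTNNB1 was at 15.7 ± 0.518, and CLDN12, OCLN, TJP1 and CLDN1 lay between 5.51 and 2.56. In OE-WT the first 3 kept their order, at 188 ± 1.56 for CDH1, 159.7 ± 20.01 for CLDN7 and 123 ± 8.25 for CLDN4. CLDN3, at 23.9 ± 4.94, lay below F11R at 36.9 ± 3.12 in both OE-WT libraries. OCLN, at 2.89 ± 0.174, overlapped both TJP1 and CLDN1 there, whereas in CTRL it lay above both. These levels depend on the exons assumed to be in use.

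The other genes of these junctions were taken as 9 lists with 88 genes, of which 65 were tested. Of these, 17 were called lower and 5 higher, with a median log2 fold change of -0.06, against 11.6% called lower and 9.44% called higher over all genes. The 5 higher calls among 65 genes, like the 1 lower call among 12 polarity genes and the 2 higher calls among 13 regulators, were near these shares. The higher calls among them depended on the scaling, with 2 under library size scaling and 10 with GC content removed. Among 15 other claudins, 4 could be tested and 5 were at 0 in all libraries. CLDN2 was called higher (above), and CLDN23 lower, at 5.84 and 6.68 CPM in OE-WT against 10.9 and 10.8 CPM in CTRL (log2 fold change -0.79, SE 0.17). Of the other tight junction membrane proteins, 2 of 5 tested were lower. They were the adhesion molecule ESAM (-0.77, SE 0.13) and the tricellular junction protein MARVELD2 (-0.32, SE 0.10), and the call of MARVELD2 was lost by DESeq2 and without OE-WT replicate 2 (-0.28), CTRL replicate 1 (-0.34) or CTRL replicate 2 (-0.31). CXADR, the most abundant gene of this list, was not called (0.01, edgeR quasi-likelihood adjusted p = 0.941), and its sign turned with library size scaling, with GC content removed, without the filter and without CTRL replicate 1.

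Among the tight junction scaffolds, partners of ZO-1 on the cytoplasmic side, 3 of 6 tested genes were lower and 0 higher. The shares over all genes tested were 11.6% and 9.44%. Cingulin (CGN), which links the junction to actomyosin, was measured at 21.9 and 26.9 CPM in OE-WT and at 40.7 and 47.3 CPM in CTRL. It fell by 0.85 on the log2 scale (SE 0.11, edgeR quasi-likelihood adjusted p = 7.57e-06). TJP3, which encodes ZO-3, fell by 0.51 (SE 0.09), from 44.5 and 43.9 CPM in CTRL to 31.9 and 30.2 CPM in OE-WT, and by 0.34 with GC content removed. PATJ, a scaffold shared with the Crumbs complex, fell by 0.51 (SE 0.13), a call lost by DESeq2 and without OE-WT replicate 2 (-0.42).

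Of 12 polarity complex genes, all tested, 1 was lower: CRB3, the epithelial Crumbs protein, at 45.6 and 50.3 CPM in OE-WT against 67.3 and 61.7 CPM in CTRL (log2 fold change -0.43, and -0.28 with GC content removed). SCRIB, the most abundant of them, was at -0.15 (edgeR quasi-likelihood adjusted p = 0.130). It was called lower with library size scaling (-0.25) and without CTRL replicate 1 (-0.25), and stood at 0.07 with GC content removed. Of 11 other adherens junction genes, 5 were lower and 0 higher, against 11.6% and 9.44% over all genes tested. Their median was -0.45. CTNNA1, the α-catenin that joins the cadherin complex to actin, fell by 0.52 (SE 0.08), from 69.2 and 70.1 CPM in CTRL to 50.8 and 46.6 CPM in OE-WT. The nectins NECTIN2 (-0.64, SE 0.07) and NECTIN1 (-0.74, SE 0.15) fell, as did the cadherins CDH3 (-0.42) and CDH17 (-0.45). VCL, which encodes vinculin, was not called (-0.07).

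In desmosomes, the third kind of adhesive contact and one anchored to keratin, 2 of 6 tested genes were higher and 0 lower. Over all genes 9.44% were called higher and 11.6% lower, so 0 lower calls among 6 genes is near that share. The 2 higher genes were DSP (0.31, SE 0.10, edgeR quasi-likelihood adjusted p = 0.0300), and PKP2 (0.30, SE 0.08). Both calls were lost by DESeq2, with library size scaling and without CTRL replicate 1 (0.32 and 0.26). That of DSP was also lost without OE-WT replicate 2 (0.25), without CTRL replicate 2 (0.30), without the filter and with the replicate block, and that of PKP2 without OE-WT replicate 1 (0.24). PKP3, the most abundant, was at 0.18 (adjusted p = 0.051, same edgeR test) and passed the threshold, at 0.40, with GC content removed. The difference between desmosome and adherens junction genes was not tested.

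EPCAM binds CLDN7, and the membrane protease matriptase (ST14) can cleave EPCAM. Prostasin (PRSS8) works with matriptase, and SPINT1 and SPINT2 inhibit these proteases. Of the 6 genes listed for EPCAM and its protease circuit, 5 were lower and 0 higher, against 11.6% and 9.44% over all genes tested. On the log2 scale PRSS8 fell by 0.74 (SE 0.07, edgeR quasi-likelihood adjusted p = 4.16e-07), SPINT1 by 0.58 (SE 0.07), SPINT2 by 0.40 and ST14 by 0.30. Without OE-WT replicate 1, SPINT2 stood at -0.26, still past the threshold. EPCAM itself was not called (-0.08, edgeR quasi-likelihood adjusted p = 0.503).

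**Figure D4:**
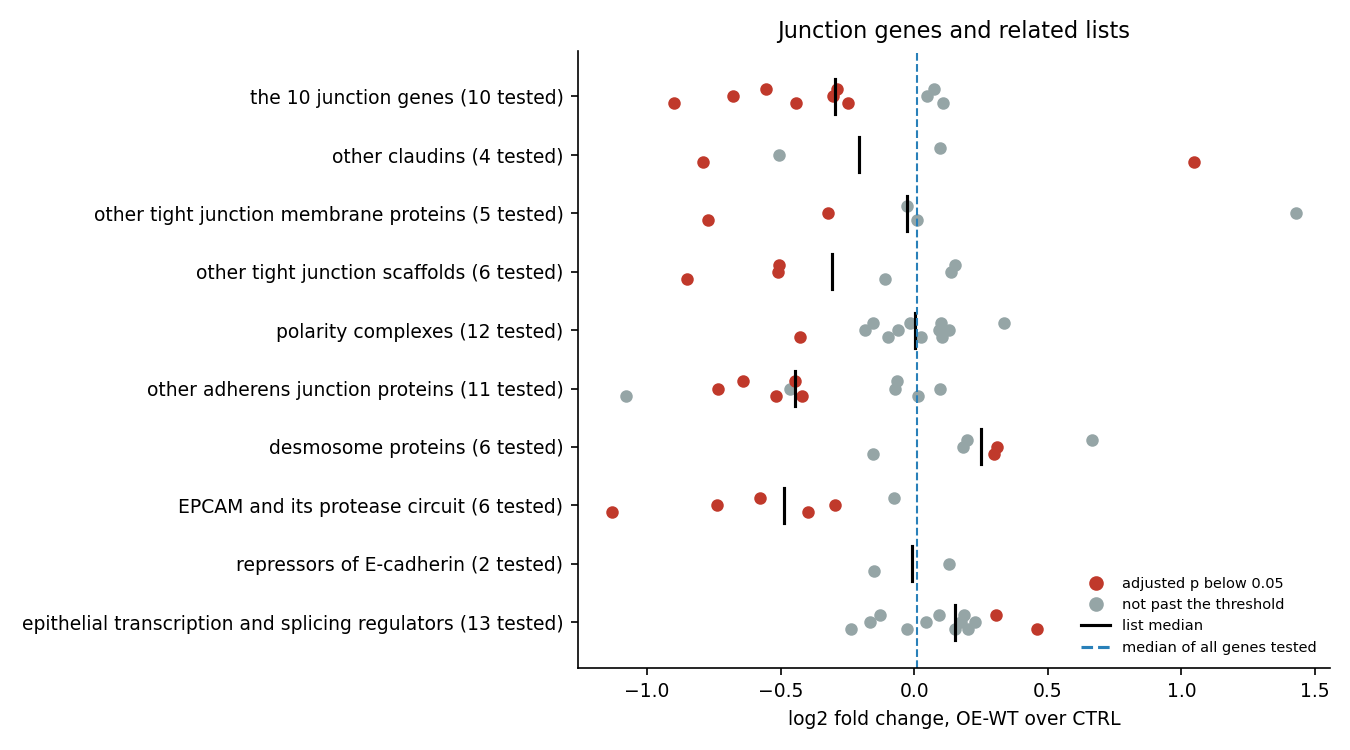
Log2 fold change of OE-WT over CTRL for every tested gene of the 10 junction genes and the 9 lists of partner genes, 1 point per gene with the list median as a line. The medians run from -0.49 for EPCAM and its protease circuit to 0.25 for the desmosome genes, and the members' median is -0.30.

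Of 6 repressors of E-cadherin transcription, 2 had enough counts to be tested and 0 were called by the edgeR test. TCF3, the most abundant, was at 0.13 (edgeR quasi-likelihood adjusted p = 0.177), and passed the threshold, at 0.30, with GC content removed. SNAI1 held 49 and 51 counts in OE-WT and 77 and 62 counts in CTRL (log2 fold change -0.15, edgeR quasi-likelihood adjusted p = 0.658). SNAI2, ZEB1 and ZEB2 had at most 6 counts in any library, and TWIST1 had 0 in all of them. Among 13 epithelial transcription and splicing regulators, 2 were higher and 0 lower, near the 9.44% and 11.6% over all genes tested. HNF4A, a nuclear receptor of the intestinal epithelium, was measured at 29.7 and 32.2 CPM in OE-WT and at 23.0 and 22.1 CPM in CTRL (0.46, SE 0.10), and KLF5 rose by 0.30 (SE 0.08). The KLF5 call was lost by DESeq2, with library size scaling and without OE-WT replicate 1 (0.24) or CTRL replicate 1 (0.23). CDX2, an intestinal homeobox factor and the most abundant gene of this list, was not called (0.18, edgeR quasi-likelihood adjusted p = 0.078) except with GC content removed (0.30).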

How the data were processed

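Poly(A)-selected RNA of 2 OE-WT and 2 CTRL libraries of DLD1 cells, each run on 2 lanes and summed to 1 column, was used as raw gene counts deposited by the authors. The study's methods describe 3 biological replicates, rRNA removal, HISAT2 and HTSeq, while the submitters' processing notes name HISAT2 2.2.1, featureCounts 2.0.0 and DESeq2 1.34.0. The annotation release and strand setting are not given in the sources used here, so reads of overlapping genes may be shared. Mutant cells were not analysed here.

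Genes were filtered with filterByExpr (minimum count 10), scaled by TMM and tested with glmQLFTest in edgeR 4.0.16, adjusted by the Benjamini-Hochberg method over 14133 genes. SD and SE rest on 2 libraries per group. Coordinates and exon lengths are from GENCODE 44 (GRCh38). The test recovered 94.5% of 200 genes changed in simulated counts for this comparison (absolute log2 fold changes of 1 to 2, 14133 genes), with 1.05% false calls among those made. All genes were simulated with a common dispersion, and the called members, at -0.90 to -0.25, lay outside the simulated range. Recovery of changes of their size was not tested.

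The members and lists were chosen with earlier results of these data known, so list counts are descriptions. Named partner genes were, per list and direction, up to 3 called genes with the largest absolute fold change, and the gene with the highest mean CPM. CDH3, CDH17, EPCAM, ST14 and the remaining repressors of E-cadherin were named after their values were seen, and some genes that the rule chose are not reported here. Alternatives were other size factors, library size scaling, no filter, a stricter filter, a replicate block, removal of the trend on GC content, DESeq2 1.42.0 and leaving out each library.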

Additional observations from a re-analysis of the deposited data

How the results depend on the processing

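CLDN3, CLDN4, CLDN7, OCLN and CDH1 were called lower under all 11 alternatives, F11R under 10 and CLDN12 under 7, and 6 or 7 members were called lower in each. Over all genes, 2976 were called, 1240 by DESeq2, and 1903 to 2852 when 1 library was left out (1903 without CTRL replicate 1). An arm with 1 library was assumed to vary like the other group. Library size scaling moved the median of all genes by -0.09 and gave 733 higher and 2451 lower calls, against 1334 and 1642. By the rule of unadjusted p and fold change, 445 genes were called, 738 without the filter, 216 with at least 10 counts in every library, 288 by DESeq2 and 429 to 570 with 1 library left out. Signs turned for CLDN1 (-0.045 with library size, -0.053 with GC content removed, -0.019 to 0.11 with 1 library left out), TJP1 (-0.019, -0.00075, -0.095 to 0.22) and CXADR (0.01, but -0.080, -0.10, -0.025 to 0.049, and -0.0077 without the filter), and for SCRIB with GC content removed (0.069). Same-numbered libraries did not deviate together (their deviations correlated at -0.07), which cannot show whether the cultures were paired. With the replicate block 2658 genes and 7 members were called. Per kilobase of the longest transcript, CTRL levels moved to 290.5 for CDH1, 281 for CLDN7, 222 for CLDN4, 46.5 for F11R, 37.7 for CTNNB1, 10.4 for CLDN12, 7.42 for OCLN, 4.03 for TJP1 and 2.70 for CLDN1. At 93 to 118 counts per library, a change of CLDN1 within its confidence interval was not detectable.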

Other observations

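Keratins and state markers beside the junction genes moved in both directions. The simple-epithelium keratins KRT8 (0.25, edgeR quasi-likelihood adjusted p = 0.0173) and KRT18 (0.30, adjusted p = 0.00512) were higher in OE-WT on the log2 scale. KRT20, a keratin of differentiated intestinal cells, fell by 1.52 (adjusted p = 7.0e-08, same test), and KRT19 was called lower (-0.19, adjusted p = 0.049). Mesenchymal markers stayed near the floor: VIM held 2 to 11 counts and CDH2 6 to 8 counts per library, while FN1, which encodes fibronectin, was called higher (0.87, adjusted p = 0.00886). The part of these keratins and markers in the levels of the junction genes was not tested.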
